A study of Homo sapiens with 12 samples.

Results

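BCL2, BMF and TNFRSF10B are 3 genes that act at different points on the way to apoptosis. They were taken by symbol (gene IDs 596, 90427 and 8795) from a table of 3699 genes, and each was measured in all 12 libraries. The cells were SW480, an established human line of colorectal adenocarcinoma origin. They spent 12 h in 10% serum before fresh medium was added with or without treatment, and their bulk RNA was sequenced. Of the 12 libraries, 3 came from cells treated with GLY, 3 from cells treated with GLY and PUE together (GLY_PUE), 3 from cells treated with PUE and 3 from untreated cells. Expression is given as FPKM, fragments per transcript length and library size, a unit taken from the values because the file's header names none. The abbreviations are those of the labels, and no dose is stated in the sources used here. The labels give 12 h for the PUE and GLY_PUE libraries and 12, 13 and 14 h for GLY replicates 1, 2 and 3, while the protocol states 12 h for the incubation. The cell line field names SW480 for every library, whereas the description field gives each library a different line number, and the extraction text also mentions retinas. Nothing states that replicates were separate cultures, so the p-values below speak to the spread among the libraries alone, and that spread may be technical.

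BCL2 encodes the founding member of a protein family whose anti-apoptotic members, BCL2 among them, hold the mitochondrial outer membrane intact. They so keep cytochrome c away from the caspases. BMF encodes a BH3-only protein, a class that binds BCL2 and its relatives and cancels their protection. It is known for being held at the motor complexes of the cytoskeleton and for its role when epithelial cells lose their attachment. TNFRSF10B encodes DR5, a death receptor on the cell surface for the ligand TRAIL (TNFSF10) that recruits FADD and caspase-8, and in human cells its gene is a known target of p53 and of the stress factor CHOP (DDIT3).

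The promoters of BCL2 and BMF are shown. Each window holds 300 bases, 250 before and 50 after a RefSeq transcription start on GRCh38.p14, read on the gene's own strand. Windows were analysed for 2 of the 3 genes, and none was analysed for TNFRSF10B. The window of BCL2 lies at chr18:63319720-63320019 and that of the upstream start of BMF at chr15:40108830-40109129, both on the minus strand. Capitals mark letters that match one of 5 motifs, searched on both strands with no overlap found between matches.
BCL2: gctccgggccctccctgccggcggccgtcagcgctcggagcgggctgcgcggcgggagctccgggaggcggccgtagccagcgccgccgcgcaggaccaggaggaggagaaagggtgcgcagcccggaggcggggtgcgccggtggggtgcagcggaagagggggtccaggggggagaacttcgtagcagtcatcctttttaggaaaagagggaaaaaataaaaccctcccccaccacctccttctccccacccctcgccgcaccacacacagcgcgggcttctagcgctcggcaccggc
BMF: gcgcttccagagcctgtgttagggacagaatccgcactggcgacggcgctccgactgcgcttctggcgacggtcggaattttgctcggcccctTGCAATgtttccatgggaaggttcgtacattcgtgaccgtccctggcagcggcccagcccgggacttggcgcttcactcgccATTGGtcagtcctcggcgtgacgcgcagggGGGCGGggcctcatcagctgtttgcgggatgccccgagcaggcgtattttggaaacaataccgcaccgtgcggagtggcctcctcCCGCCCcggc
The BMF window held the GC box GGGCGG at position 206 and, on the other strand, at position 291, the CCAAT box on the other strand at position 176, and the C/EBP half-site TGCAAT at position 94, with positions counted from 1 at the 5′ end. The BCL2 window and that of a second RefSeq start of BMF, at chr15:40106917-40107216, held none of these letters. Neither window held the FOXO motif GTAAACA or the E-box CACGTG. Of 35116 RefSeq promoter windows of this length, 45.0% held GGGCGG, 34.6% CCAAT, 8.21% TGCAAT, 3.42% GTAAACA and 7.26% CACGTG. GC content was 70.7% for BCL2 and 65.0% for BMF, against a median of 58.7% over all windows. A match describes the letters only, and no binding was measured.

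The table is a list that its authors selected. Each gene reaches an absolute log2 ratio of 1 together with a q-value no higher than 0.001 in 1 or more comparisons by the authors, so a call in it is common and the share of calls over all genes is given beside each result. The listed genes held 2.79e+06 to 3.28e+06 reads per library, and recovered library totals lay between 0.972 and 1.06 times that of untreated replicate 1. Values without the libraries numbered 3 are given below. Of 11 markers of colorectal epithelium the table held 2. CDX2 was at 3.00 to 6.4 FPKM in GLY and 22.9 to 28.2 FPKM in untreated libraries, and VIL1 at 0.89 to 1.16 FPKM in GLY and 1.92 to 3.70 FPKM in untreated libraries. Of 6 leukocyte markers it held CD14, at 0.03 to 0.13 FPKM in GLY and 0.52 to 0.62 FPKM in untreated libraries, of 6 fibroblast markers PDGFRB, at 0.29 to 0.62 FPKM in GLY and 0.15 to 0.18 FPKM in untreated libraries, and of 5 endothelial markers 0. The other markers were not analysed here, and the part of CDX2, VIL1, CD14 and PDGFRB in the results below was not tested.

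All 3 genes changed in cells treated with GLY. BCL2 and BMF fell, and TNFRSF10B rose, and the same directions were found when GLY was given together with PUE. PUE alone moved none of them past the test. The call of BCL2 held with libraries scaled by their recovered totals and not with TMM, as given below. On the per-length scale the receptor was by far the most abundant of the 3 in every group, at 24.4 FPKM in untreated cells, against 2.11 FPKM for BMF and 0.843 FPKM for BCL2. The level here is that of a culture's bulk RNA, in which fewer expressing cells and less RNA per cell cannot be told apart.

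BCL2, the guard of the mitochondrion, stood at 0.29, 0.45 and 0.39 FPKM in the GLY libraries and at 0.38, 0.49 and 0.58 FPKM in the GLY_PUE libraries. It stood at 0.60, 0.65 and 0.83 FPKM with PUE and at 0.74, 0.92 and 0.87 FPKM in untreated libraries. The 6 libraries with GLY are all below the 6 without it. By scaled counts, 65.6% of all genes tested were lower without overlap in GLY against untreated cells. In GLY_PUE against PUE cells 65.8% were. The share over all 12 libraries was not counted. The means were 0.377 ± 0.0808 FPKM in GLY, 0.483 ± 0.10 in GLY_PUE, 0.693 ± 0.121 in PUE and 0.843 ± 0.0929 in untreated cells (SD, n = 3 each). Few reads lie behind these levels, with 16, 31 and 27 counts in GLY libraries and 75, 66 and 76 in untreated libraries. In the count model across all genes BCL2 fell in GLY against untreated cells by 1.62 on the log2 scale (SE 0.315, 95% interval −2.30 to −0.94, edgeR adjusted p = 0.000927). In GLY_PUE against untreated cells the log2 fold change was −1.29 (SE 0.310, edgeR adjusted p = 0.00336).

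BMF, the BH3-only antagonist, showed the widest separation of the 3. It was at 0.21, 0.28 and 0.23 FPKM in GLY libraries and at 0.27, 0.23 and 0.34 FPKM in GLY_PUE libraries. With PUE it was at 1.75, 1.84 and 2.82 FPKM, and in untreated libraries at 1.45, 1.53 and 3.36 FPKM. The highest library with GLY is thus far below the lowest library without it. The library numbered 3 is the highest in the PUE, untreated and GLY_PUE groups, and not in the GLY group. As given for BCL2, lower groups without overlap are common among all genes tested. The mean was 0.240 ± 0.0361 FPKM in GLY and 2.11 ± 1.08 FPKM in untreated cells (SD, n = 3 each), 8.81 times lower with GLY. The read counts were 20, 26 and 22 in GLY and 130, 142 and 305 in untreated libraries. BMF fell by 3.15 on the log2 scale in GLY against untreated cells (SE 0.38, 95% interval −3.97 to −2.33, edgeR adjusted p = 6.24e-05), and by 2.90 in GLY_PUE against untreated cells (SE 0.37, edgeR adjusted p = 0.000102).

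TNFRSF10B, the death receptor, was at 37.7, 51.0 and 63.5 FPKM in GLY libraries and at 54.0, 51.7 and 64.8 FPKM in GLY_PUE libraries. It was at 26.9, 27.6 and 19.3 FPKM with PUE and at 25.9, 27.0 and 20.2 FPKM in untreated libraries. Every library with GLY is above every library without it. By scaled counts, 17.7% of all genes tested were higher without overlap in GLY against untreated cells. In GLY_PUE against PUE cells 22% were. The means were 50.7 ± 12.9 FPKM in GLY, 56.8 ± 7.03 in GLY_PUE, 24.6 ± 4.60 in PUE and 24.4 ± 3.62 in untreated cells (SD, n = 3 each), 2.08 times higher in GLY than in untreated cells. The gene is the best counted of the 3, with 3257 to 5539 reads in GLY and 1677 to 2221 reads in untreated libraries. TNFRSF10B rose in GLY against untreated cells by 1.06 on the log2 scale (SE 0.25, 95% interval 0.52 to 1.59, edgeR adjusted p = 0.00267) and in GLY_PUE against untreated cells by 1.22 (SE 0.25, edgeR adjusted p = 0.00131).

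**Figure D1:**
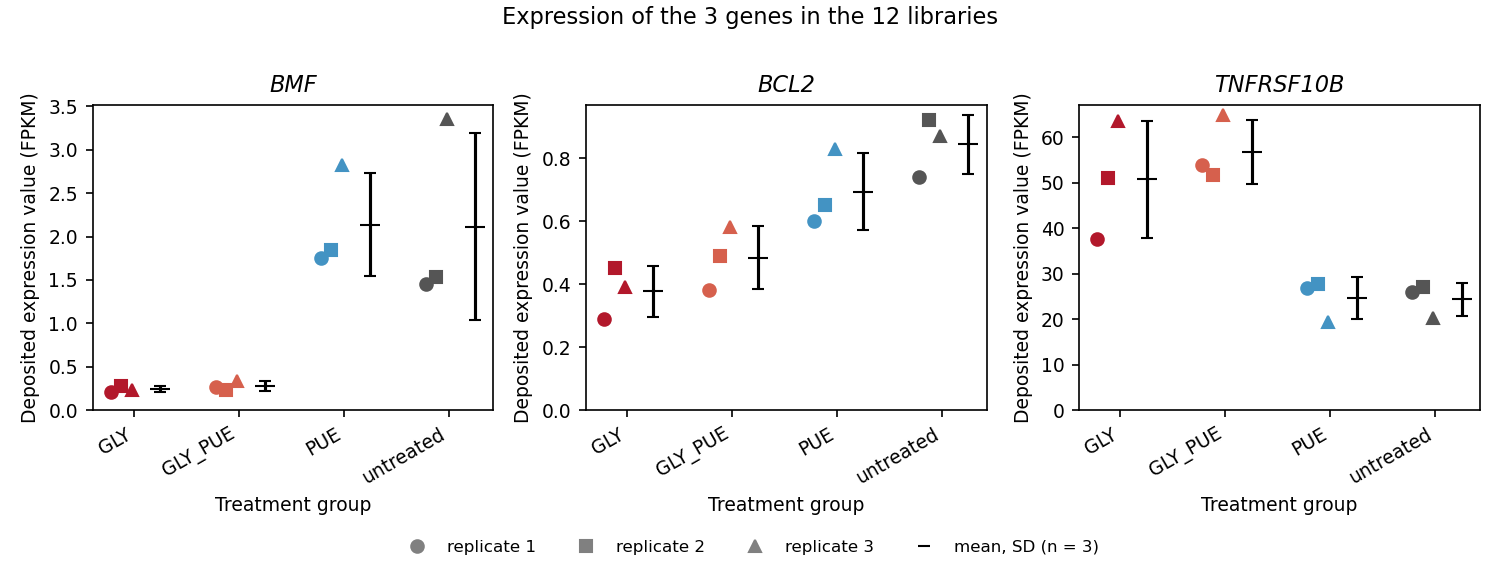
Deposited expression values (FPKM, linear axis from 0) of BMF, BCL2 and TNFRSF10B in the 12 libraries by treatment group, with the replicate number as the symbol and the mean and SD of 3 libraries beside them. BMF and BCL2 are lower, and TNFRSF10B is higher, in all 6 libraries with GLY than in the 6 without. The libraries numbered 3 of PUE and untreated cells hold the highest BMF and the lowest TNFRSF10B values of their groups. GLY_PUE replicate 3 also holds the highest BMF value of its group. Groups that do not overlap are common among all genes tested.

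These calls are to be read against the selected table. In GLY against untreated cells all 3 genes passed, as did 84.3% of the 3429 genes tested, with 64.6% of those tested lower and 19.7% higher. In GLY_PUE against untreated cells 3 of 3 passed, against 77.3% of all genes tested, with 57.1% lower and 20.2% higher. Groups that do not overlap are as common, at 65.6% lower and 17.7% higher for GLY against untreated cells. By size, 2.80% of genes tested had a lower log2 fold change than BMF in GLY against untreated cells, and 24.2% had a lower one than BCL2, whose −1.62 stands beside a median of −1.15 over all genes tested. For TNFRSF10B 17.2% of genes had a higher one. In GLY_PUE against untreated cells 34.7% had a lower one than BCL2, whose −1.29 stands beside a median of −1.03.

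The scaling of the libraries matters most for BCL2. Scaling by TMM within the table, which assumes that most listed genes do not change, shifts log2 fold changes by 1.13 for GLY against untreated cells and by 1.01 for GLY_PUE against untreated cells. Under TMM BMF was still lower (−1.96, edgeR adjusted p = 0.000191) and TNFRSF10B higher (2.15, edgeR adjusted p = 6.11e-05) in GLY than in untreated cells. BCL2 kept its sign but not its call, at −0.51 (edgeR adjusted p = 0.177) in GLY and −0.30 (edgeR adjusted p = 0.468) in GLY_PUE against untreated cells.

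A second pair of groups asks the same question in other libraries. GLY_PUE against PUE shares no library with GLY against untreated cells, although the 12 libraries share 1 estimate of the spread. Same-numbered PUE and untreated libraries also deviated together (correlations of 0.397, 0.28 and 0.59). The authors' selection of the table drew on both comparisons, so this pair is not separate support for the 3 genes. TNFRSF10B was higher in GLY_PUE than in PUE cells (log2 fold change 1.21, SE 0.25, edgeR adjusted p = 0.00135) and BMF was lower (−2.93, SE 0.37, edgeR adjusted p = 0.000101). BCL2 was lower too (−0.93, SE 0.31, edgeR adjusted p = 0.0172). Its fall was smaller than the median of −1.05 over all genes tested, and 57.3% of them had a lower log2 fold change. All 3 passed, as did 77.8% of all genes tested, with 57.3% lower and 20.6% higher. The BCL2 call ended without GLY_PUE replicate 1 (−0.77), GLY_PUE replicate 2 (−0.90) or PUE replicate 3 (−0.83), and under TMM its sign turned (0.086, edgeR adjusted p = 0.871). It was also lost on the expression values, at −0.45 on the scale of log2(FPKM + 0.1) (limma adjusted p = 0.109).

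Over both pairs of groups, the mean log2 scaled count in the 6 libraries with GLY less that in the 6 without was 1.13 for TNFRSF10B, −2.96 for BMF and −1.30 for BCL2. An exact two-sided permutation test within the libraries with PUE and within those without gave p = 0.005 for each gene. That is the smallest p that its 400 arrangements allow, and any gene whose groups separate in the same direction in both pairs reaches it. In GLY against untreated cells 65.6% of all genes tested were lower without overlap and 17.7% higher. In GLY_PUE against PUE cells these shares were 65.8% and 22%. The share that reaches the smallest p was not counted. The table was selected for change in these same libraries, so this p is not separate support for the 3 genes. Under TMM the difference for BCL2 was −0.23 (exact permutation p = 0.19).

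PUE on its own was not shown to move any of the 3 genes. Against untreated cells the log2 fold change with PUE was 0.03 for BMF (95% interval −0.69 to 0.76) and 0.01 for TNFRSF10B (95% interval −0.52 to 0.54). For BCL2 it was −0.36 (95% interval −1.02 to 0.29, edgeR adjusted p = 1). BCL2 counts were 47, 58 and 62 with PUE and 75, 66 and 76 in untreated libraries, and the scaled counts of these groups do not overlap, as in 1.66% of all genes tested in that direction and 1.52% in the other. Same-numbered libraries of these groups deviated together, and the differences of PUE less untreated within numbers 1, 2 and 3 were −0.66, −0.20 and −0.25 for BCL2 on the log2 scale. Those for BMF were 0.30, 0.28 and −0.24, and those for TNFRSF10B 0.05, 0.03 and −0.06. BCL2 was thus lower with PUE in each of the 3 pairs, and with the replicate block it was at −0.38 (edgeR adjusted p = 1, unadjusted p = 0.136). On the expression values the groups overlap, with 0.83 FPKM in PUE replicate 3 and 0.74 FPKM in untreated replicate 1. In this comparison 0 of the 3429 genes passed with edgeR (0% called, 12 at an unadjusted p under 0.05), and DESeq2 and limma-voom gave 0 calls with 4 and 14 such genes.

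Adding PUE to GLY gave no call either. The log2 fold changes of GLY_PUE against GLY were 0.33 for BCL2 (95% interval −0.36 to 1.02), 0.26 for BMF (95% interval −0.57 to 1.08) and 0.17 for TNFRSF10B (95% interval −0.37 to 0.70), each with an edgeR adjusted p of 0.959. With edgeR 0 genes passed (0% called, 57 at an unadjusted p under 0.05), and DESeq2 and limma-voom gave 0 calls with 49 and 59 such genes. The value of TNFRSF10B rests on GLY replicate 1, the lowest of its group at 37.7 FPKM, and was −0.010 without it. The authors' deposited table lists TNFRSF10B in GLY_PUE over GLY with a log2 ratio of 0.16 and a q-value of 4.79e-20. The GLY_PUE libraries, at 51.7 to 64.8 FPKM, overlap the GLY libraries, at 37.7 to 63.5 FPKM. BCL2 and BMF overlap between these groups as well, where 3.3% of all genes tested were higher and 1.57% lower without overlap.

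Whether the response to GLY differed with PUE was tested as an interaction. The difference of the 2 log2 fold changes, GLY_PUE over PUE less GLY over untreated, was 0.70 for BCL2 (95% interval −0.25 to 1.65), 0.22 for BMF (95% interval −0.88 to 1.318) and 0.15 for TNFRSF10B (95% interval −0.60 to 0.90). None passed, with an edgeR adjusted p of 0.999 for each, and no difference between the effects was shown. Over all genes 0 passed (0% called, 33 at an unadjusted p under 0.05 with edgeR, 22 with DESeq2 and 35 with limma-voom, where these gave 0 calls as well).

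**Figure D2:**
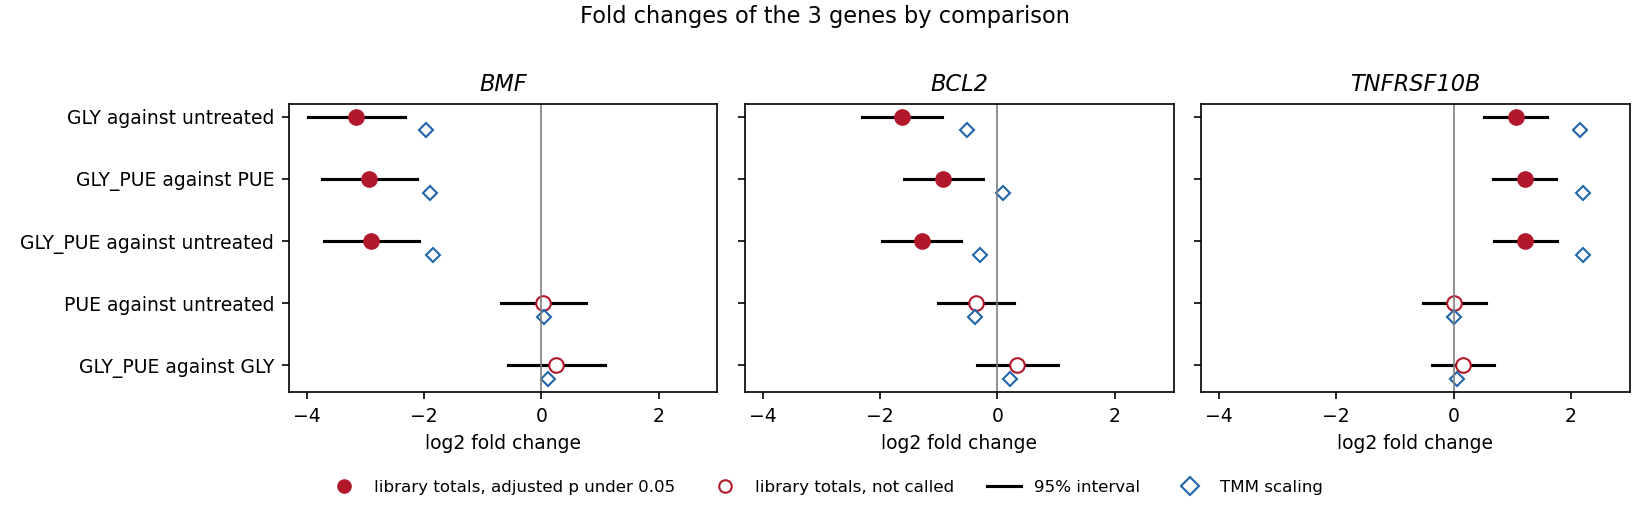
Log2 fold changes of BMF, BCL2 and TNFRSF10B in 5 comparisons, with circles for scaling by recovered library totals (filled where the edgeR adjusted p was under 0.05), lines for the 95% interval and diamonds for TMM scaling. Both scalings put BMF below 0 and TNFRSF10B above 0 in the 3 comparisons that differ by GLY, whereas BCL2 lies at −1.62, −0.93 and −1.29 with library totals and at −0.51, 0.086 and −0.30 with TMM.

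The replicate numbers carry differences of their own. In untreated cells BMF in replicate 3 was 1.16 higher on the log2 scale than the mean of replicates 1 and 2. It was 0.63 higher in PUE cells and 0.39 higher in GLY_PUE cells, while in GLY cells the same difference was −0.05. BCL2 in replicate 3 was higher in every group, by 0.27 in GLY, 0.54 in GLY_PUE, 0.28 in PUE and 0.10 in untreated cells. TNFRSF10B in replicate 3 was lower by 0.50 in PUE cells and by 0.39 in untreated cells than in replicates 1 and 2, yet 0.54 higher in GLY and 0.30 higher in GLY_PUE cells. The differences between GLY and untreated libraries of the same number were thus 0.54, 0.92 and 1.65 for TNFRSF10B, −2.73, −2.51 and −3.83 for BMF, and −2.26, −1.16 and −1.55 for BCL2, for numbers 1, 2 and 3. Each sign is the same in the 3 pairs, and the size is largest at number 3 for BMF and TNFRSF10B. Between GLY_PUE and PUE libraries they were 1.01, 0.91 and 1.75 for TNFRSF10B, −2.67, −2.95 and −3.05 for BMF, and −1.04, −1.002 and −0.76 for BCL2. In the GLY group the number and the labelled hour coincide and cannot be told apart. Without the libraries numbered 3, GLY against untreated cells gave 0.74 for TNFRSF10B (edgeR adjusted p = 0.0153), −2.63 for BMF (edgeR adjusted p = 0.000575) and −1.66 for BCL2 (edgeR adjusted p = 0.00583).

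The 2 deposited measures differ for BCL2. Scaled counts of BCL2 were 3.09 times lower in GLY than in untreated cells, whereas expression values were 2.24 times lower. The number of reads behind 1 FPKM, at the depth of untreated replicate 1, was 52.8, 65.3 and 65.7 in GLY libraries and 59.9, 58.4 and 64.4 in GLY_PUE libraries. It was 78.8, 88.8 and 76.8 in PUE libraries and 101, 72.3 and 87.1 in untreated libraries, so the 6 libraries with GLY all lie below the 6 without. For TNFRSF10B the same quantity stayed between 82.7 and 82.9 in all 12 libraries, and for BMF between 88.0 and 95.3. The mean log2 change for BCL2 was −0.50 in GLY over untreated cells, and only 0.961% of 2290 genes with enough reads had one as low or lower, where 5% lay below −0.20. In GLY_PUE over PUE cells it was −0.42. A gene's reads per FPKM follow the length that the authors' processing assigned to it, and GENCODE release 29 lists BCL2 transcripts of 572, 3209, 5011 and 7461 bases. The part of a change between transcripts in this was not tested.

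**Figure D3:**
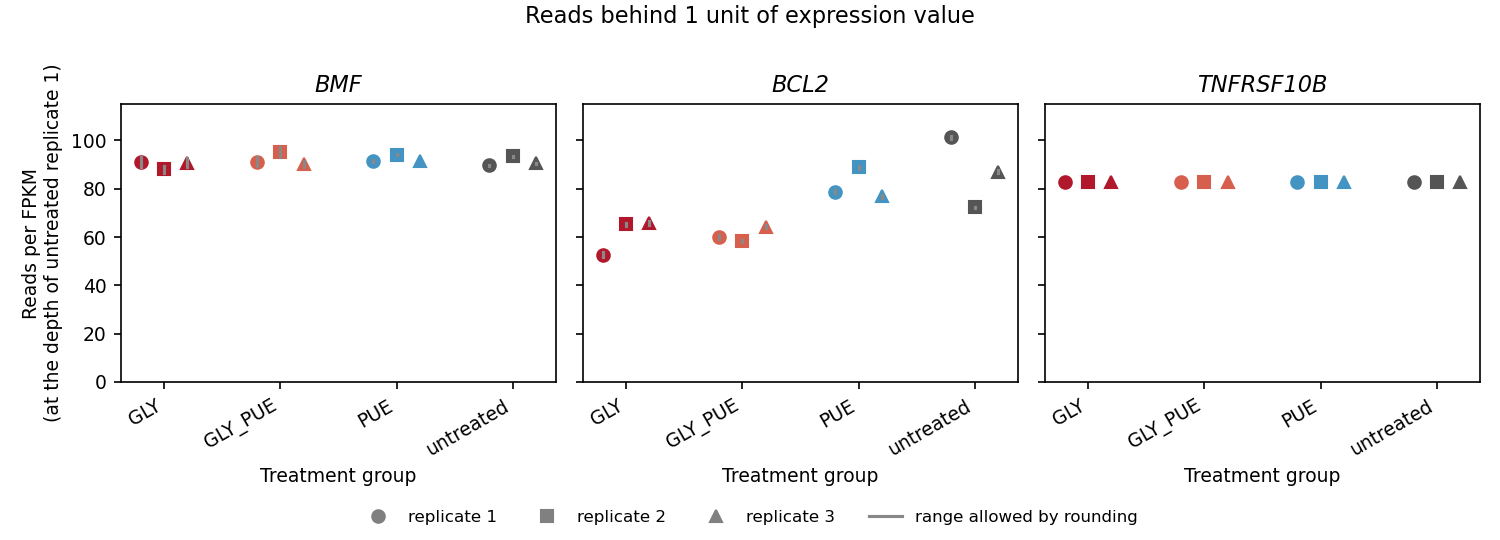
Reads behind 1 FPKM, at the depth of untreated replicate 1 (linear axis from 0), for BMF, BCL2 and TNFRSF10B in the 12 libraries, with grey bars for the range allowed by rounding of the expression value to its last digit. BCL2 lies between 52.8 and 65.7 in the 6 libraries with GLY and between 72.3 and 101 in the 6 without, while TNFRSF10B stays between 82.7 and 82.9.

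The table holds 24 of 84 genes on 9 lists of apoptosis genes and their regulators, and all 24 were tested. The 24 include BCL2, BMF and TNFRSF10B themselves. They also include 8 transcription factors, of which 4 rose and 4 fell in GLY against untreated cells. The others were not analysed here, among them every gene of the list of the receptor complex (FADD, CASP8 and CFLAR included). In GLY against untreated cells 7 of the 24 rose, 16 fell and 1 did not pass, with a median log2 fold change of −1.29, beside −1.15 over all genes tested, of which 19.7% were called higher and 64.6% lower. In GLY_PUE against untreated cells 7 rose, 15 fell and 2 did not pass (median −1.10, beside −1.03 over all genes, with 20.2% called higher and 57.1% lower). Under TMM 7 rose and 7 fell in GLY against untreated cells, where 812 of the 3429 genes tested were called higher and 346 lower. The lists were chosen with earlier results of these data known.

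Among the ligand and decoys of the receptor, TNFSF10, TNFRSF11B and TNFRSF10D were called lower in GLY against untreated cells, as were 64.6% of all genes tested. TNFSF10, which encodes the ligand TRAIL, was at 0.133 ± 0.0115 FPKM in GLY and 1.46 ± 0.132 FPKM in untreated libraries (SD, n = 3 each), a log2 fold change of −3.53 (SE 0.33, edgeR adjusted p = 1.57e-05). TNFRSF11B, which encodes osteoprotegerin, a soluble decoy that can bind TRAIL, was at 0.04 to 0.30 FPKM in GLY and 12.3 to 28.97 FPKM in untreated libraries (−6.60, SE 0.65, edgeR adjusted p = 2.25e-05). TNFRSF10D, a membrane decoy receptor for TRAIL that lacks a working death domain, was at 7.20 to 12.9 FPKM in GLY and 15.1 to 24.1 FPKM in untreated libraries (−1.18, SE 0.33, edgeR adjusted p = 0.00663), beside a median of −1.15 over all genes tested. Few reads lie behind the GLY levels of TNFSF10, with 4 to 6 counts, and of TNFRSF11B, with 2 to 15. In untreated libraries they had 51 to 60 and 570 to 1357 counts. Under TMM TNFSF10 (−2.40) and TNFRSF11B (−5.46) still passed, and TNFRSF10D did not (−0.08). In GLY_PUE against untreated cells TNFRSF10D was at −0.84 (edgeR adjusted p = 0.0329), a call that ended without GLY_PUE replicate 3 (−0.60) or untreated replicates 1 (−0.735) or 2 (−0.73) and whose sign turned under TMM (0.15).

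Another decoy, TNFRSF10C, lay above 0 without passing. Its product is anchored in the membrane without a death domain, and its RNA was at 0.10 to 0.48 FPKM in GLY and 0.03 to 0.34 FPKM in untreated libraries (0.50, SE 0.79, edgeR adjusted p = 0.546), with groups that overlap. It was at 0.29 to 0.88 FPKM in GLY_PUE libraries, a log2 fold change of 1.49 against untreated cells (SE 0.75, edgeR adjusted p = 0.0829), and there it passed under TMM (2.46, edgeR adjusted p = 0.0131) and RLE (2.43, edgeR adjusted p = 0.0144). Its counts are low, at 9 to 27 in GLY_PUE and 1 to 10 in untreated libraries. Its sequence is close to those of the other TRAIL receptors, and how the counting shared reads among them is not stated. FASLG, the ligand of the FAS receptor, was at 0.13 to 0.26 FPKM in GLY and 0.66 to 1.04 FPKM in untreated libraries (−2.31, SE 0.46, edgeR adjusted p = 0.00103). In GLY_PUE against untreated cells it was at −2.69, and at −3.27 without GLY_PUE replicate 1. FASLG counts were low too, at 5 to 10 in GLY, 3 to 9 in GLY_PUE and 24 to 39 in untreated libraries.

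Among relatives of BCL2 the table held 2 more. BOK, a BAX-like protein, rose to 27.2 to 43.5 FPKM in GLY, against 17.5 to 17.6 FPKM in untreated libraries (0.91, SE 0.23, edgeR adjusted p = 0.00397). With GLY_PUE against untreated cells BOK was at 0.62 (edgeR adjusted p = 0.0263), a call that ended without any 1 of those 6 libraries (adjusted p up to 0.0643). BCL2L15, a family member known from the digestive tract, was at 1.88 to 3.09 FPKM in GLY and 11.9 to 13.6 FPKM in untreated libraries (−2.36, SE 0.29, edgeR adjusted p = 6.77e-05). BAG3, a co-chaperone that binds BCL2, rose by 1.44 (SE 0.22, edgeR adjusted p = 0.000231). The other anti-apoptotic and BH3-only genes of the lists, such as MCL1, BCL2L1, BBC3 and PMAIP1, were not analysed here.

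The genes of caspases, of the apoptosome and of their inhibitors that the table holds were all 5 called lower in GLY against untreated cells, as were 64.6% of all genes tested, whose median was −1.15. APAF1, the scaffold of the apoptosome, was at −1.62, the initiator caspase gene CASP2 at −1.47, CASP6 at −1.22, BIRC5 (survivin) at −1.31 and NAIP at −1.27 in GLY against untreated cells, with edgeR adjusted p from 0.000309 to 0.00431. None of the 5 passed under TMM, where they lay between −0.56 and −0.09. NAIP has near-identical copies in the genome, so its counts are uncertain. The call of APAF1 in GLY_PUE against untreated cells (−1.13) ended without GLY_PUE replicate 1 (−1.10), GLY_PUE replicate 2 (−1.08) or untreated replicate 3 (−1.04).

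Of 16 transcription factors known to act on the 3 genes, 8 were in the table. DDIT3, which encodes CHOP, was at 292 to 456 FPKM in GLY and 52.2 to 123 FPKM in untreated libraries (1.98, SE 0.40, edgeR adjusted p = 0.00109). ATF3, its partner in the stress response, rose by 1.96 (SE 0.42, edgeR adjusted p = 0.00164), MYC by 1.40 and JUN by 1.495. Like TNFRSF10B, DDIT3, ATF3 and JUN were lowest in replicate 3 of the PUE and of the untreated libraries. DDIT3 was at 51.2 and 52.2 FPKM there. SERPINB8, TRIM25 and TMEM39A, genes picked for a pattern like that of TNFRSF10B, were lowest in the same libraries, with SERPINB8 at 8.96 and 8.40 FPKM. The share of all genes with this low replicate 3 was not counted. MYC, which rose too, did not show a single low library in these groups but a single high one. Its low, median and high values were 77.6, 82 and 107 FPKM with PUE and 77.4, 81.6 and 113 FPKM in untreated libraries. Whether DDIT3, ATF3 or JUN acted on TNFRSF10B in these cells was not tested. TP73, a relative of p53, fell by 3.87 on the log2 scale (SE 0.30, edgeR adjusted p = 8.38e-06), MYB, an activator of BCL2, by 2.59, and E2F1 by 1.38. FOXO1, whose family is known to act on BH3-only genes, was at −1.01 (edgeR adjusted p = 0.0455), where the sign turned under TMM (0.064) and the call ended without any 1 of 8 of the 12 libraries (adjusted p up to 0.138). Under TMM TP73 (−2.70) and MYB (−1.46) still passed, and E2F1 did not (−0.16).

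**Figure D4:**
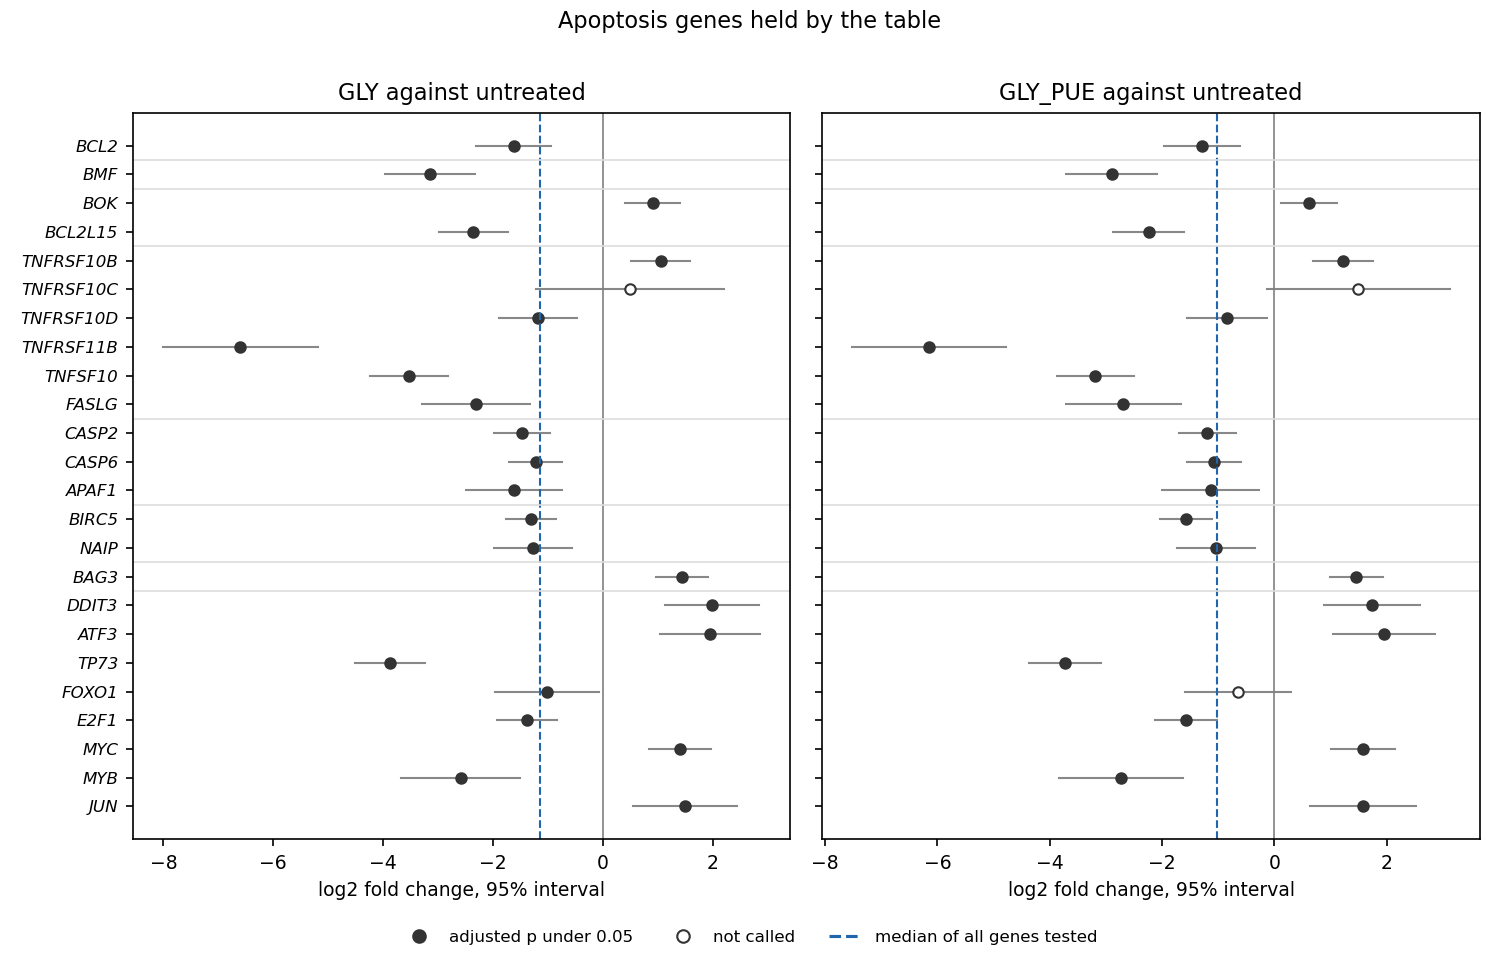
Log2 fold changes with 95% intervals of the 24 apoptosis genes that the table holds, grouped by role from BCL2 at the top to transcription factors at the bottom, for GLY against untreated and GLY_PUE against untreated cells, with filled points where the edgeR adjusted p was under 0.05 and a dashed line at the median of all genes tested (−1.15 and −1.03). TNFRSF11B, TP73, TNFSF10 and BMF lie furthest below that median, and TNFRSF10B lies above 0 with BOK, BAG3, DDIT3, ATF3, MYC and JUN, as does TNFRSF10C, which was not called in either comparison.

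The genes whose pattern over the 12 libraries was nearest to each of the 3 were found by the root mean square difference between centred log2 scaled counts among genes with at least 50 scaled counts on average. For TNFRSF10B they were SERPINB8 (0.09), TRIM25 (0.10) and TMEM39A (0.12), where the median over 2308 genes was 1.20. For BMF they were MLLT3 (0.17), B4GAT1 (0.19) and CDKN2C (0.20), beside a median of 1.03. For BCL2 they included CASP2 (0.20) and CHRNA5 (0.20), beside a median of 0.51 over 2309 genes. MLLT3 showed the same high replicate 3 as BMF, with 0.13 to 0.16 FPKM in GLY libraries and 0.96 to 1.79 FPKM in untreated libraries. The likeness uses libraries that share the replicate numbers and the response to GLY, and it describes these 12 libraries only.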

How the data were processed

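RNA of 12 SW480 libraries, 3 each of GLY, GLY_PUE, PUE and untreated cells, was sequenced on a BGISEQ-500. The deposited table gives, per the file headers, a read count and an expression value for each gene and library. The counts are the authors' estimated counts (58.2% are whole numbers) and were rounded. The expression values deposited carry no unit and were taken as FPKM. The log2 ratios are the authors' deposited ratios of mean counts, shifted by 1 constant per comparison. The q-values are the authors' deposited values, with no method given. The submitters' processing notes name TopHat and DESeq 1.32.0 without a role, and the aligner's settings, counter, strand and genome build were not stated in any source used here.

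Because the table lists only selected genes, libraries were scaled by relative totals recovered from count and expression of 625 genes (at least 100 counts and 5 FPKM). These differ from the authors' constants by at most 0.00185 on the log2 scale. The full depth is unknown, and the listed reads are 2.79e+06 to 3.28e+06 per library. Of 3699 genes 3429 passed a filter on low counts and were tested with edgeR 4.0.16 (R 4.3.3) in a quasi-likelihood fit over all 12 libraries, with Benjamini-Hochberg adjustment and a threshold of 0.05. The fit was tried on simulated data in which few genes changed and the library totals were given, so the scaling was not tested there. Alternatives were TMM, RLE, DESeq2 1.42.0, limma 3.58.1 (voom, and log2 of FPKM plus 0.1 or 1), other filters, thresholds and samples, and a replicate block.

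Genes named are the 3 genes, the listed apoptosis genes in the table, and the 3 genes nearest in pattern to each, of which 1 is not reported here. The 3 genes and the lists were chosen with earlier results of these data known.

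The replicate numbers come from the titles. Deviations of same-numbered libraries from their group means correlated most in PUE and untreated cells (0.397, 0.28 and 0.59). The correlations were 0.123, 0.139 and 0.356 in GLY_PUE and PUE and 0.12, 0.163 and 0.348 in GLY_PUE and untreated cells. They were 0.0546, 0.234 and 0.241 in GLY_PUE and GLY, 0.0511, 0.0858 and 0.234 in GLY and untreated, and 0.0046, 0.0854 and 0.119 in GLY and PUE cells. All were above 0, and none was tested.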

Additional observations from a re-analysis of the deposited data

How the results depend on the processing

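BMF and TNFRSF10B kept their direction and call in the 3 comparisons that differ by GLY under every alternative that gave a value. BCL2 did not. Scaled by TMM and by RLE it was at −0.51 and −0.56 in GLY against untreated cells (edgeR adjusted p = 0.177 and 0.131), at −0.30 and −0.33 in GLY_PUE against untreated cells (0.468 and 0.415), and at 0.086 and 0.060, with the sign turned, in GLY_PUE against PUE cells. In that last comparison limma gave −0.45 on log2(FPKM + 0.1) and −0.19 on log2(FPKM + 1), and the edgeR value of −0.93 misses a threshold of 0.01. With all 12 libraries the TMM difference was −0.23 (exact permutation p = 0.19).

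With TMM and RLE edgeR made 1158 and 1188 calls in place of 2890 in GLY against untreated cells, 1211 and 1234 in place of 2651 in GLY_PUE against untreated cells, and 1232 and 1250 in place of 2669 in GLY_PUE against PUE cells. The apoptosis list had 14 calls under each, in place of 23, in GLY against untreated cells. The sign of FOXO1 turned in GLY (0.064 and 0.025) and GLY_PUE (0.38 and 0.35) against untreated cells, and that of TNFRSF10D in GLY_PUE against untreated cells (0.15 and 0.13). The interaction of BMF was −0.0022 with limma on log2(FPKM + 1). The scaling constants differ by construction, and the cause was not tested otherwise.

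Leaving out libraries gave −0.21 to 0.53 for BMF and −0.11 to 0.16 for TNFRSF10B in PUE against untreated cells, −0.010 to 0.36 for TNFRSF10B in GLY_PUE against GLY cells, −1.13 to −0.77 for BCL2 in GLY_PUE against PUE cells, and −0.36 to 1.31 for TNFRSF10C in GLY against untreated cells. The interaction ranged from −0.27 to 0.46 for BMF and from −0.023 to 0.35 for TNFRSF10B. Calls ranged from 0 to 1 in GLY_PUE against GLY cells and for the interaction, both reaching 1 without GLY_PUE replicate 2.

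With the replicate block, edgeR called 3086, 2926 and 2949 genes in GLY against untreated, GLY_PUE against untreated and GLY_PUE against PUE cells and 0 in the others, and no call of the 3 genes or of the list changed. With the block the exact permutation p was 0.03125 for each gene, the smallest that 64 arrangements allow. The share of all genes that reaches it was not counted. BCL2, with few reads, has no value under the filter of at least 50 scaled counts, and the interaction none from only the libraries compared.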
